A study of Mus musculus with 32 samples.

Results

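Enzymes that use up arginine, tryptophan or aromatic amino acids were followed in CD4+ T cells. Also followed were enzymes that rebuild arginine from citrulline or use ornithine. The T cells met antigen in media poor in 1 amino acid, or beside macrophages pretreated with interleukins. The members are 8 genes: the arginases Arg1 and Arg2, the inducible nitric oxide synthase Nos2, the secreted amino acid oxidase Il4i1, the tryptophan dioxygenase Ido1, the citrulline recycling enzymes Ass1 and Asl, and the ornithine aminotransferase Oat. They were matched by gene symbol in the platform annotation. A probe set naming 1 gene alone was found for 7 of the 8 among 22180 genes on the 48 h arrays, and for all 8 among 17097 genes on the 72 h arrays. The gap is Il4i1 at 48 h, where the probe set that names it also names Nup62 and Il4i1b, so that no level of Il4i1 can be read there.

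All samples were CD4+ T cells of DO11.10 TCR transgenic Balb/c mice, which recognise an ovalbumin (OVA) peptide, taken from axial and cervical lymph nodes and cultured with peritoneal macrophages collected 3 days after thioglycollate. Viable CD4+ singlets were sorted, and 100 ng of RNA went onto each array. At 48 h, on MoGene-2_0-st arrays, 3 arrays held T cells given OVA on macrophages that had spent 12 to 16 h with 10 ng/mL each of IL-4 and IL-10 before a wash. For each of arginine, leucine and lysine, 3 arrays held T cells given OVA while that amino acid was cut to 1% of its RPMI level, and 3 arrays held T cells given OVA in full medium. Cultures without OVA were made in the 3 low media only, with 2 arrays for arginine and 3 each for leucine and lysine. At 72 h, on HT_MG-430_PM arrays, 3 arrays each held T cells given OVA on pretreated macrophages, given OVA on untreated macrophages, or left untreated, all in full medium. The labels state that the pretreatment was meant to induce arginase-1 in the macrophages.

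Arginine is split by arginases into ornithine and urea, and is oxidised by nitric oxide synthases to nitric oxide and citrulline. Macrophages activated by IL-4 make much arginase 1, and arginine depletion by such cells is known to restrain T cell division. T cells can rebuild arginine from citrulline through argininosuccinate synthase (Ass1) and argininosuccinate lyase (Asl), while ornithine aminotransferase (Oat) links ornithine to glutamate and proline. IDO1 and IL4I1 degrade tryptophan and aromatic amino acids and are made by myeloid cells.

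Promoter sequence was at hand for 3 of the 8 members, and is shown for Ass1, whose 72 h values spread by 2.92 log2 units, and for Oat, called in 6 comparisons. Each line gives the 250 bases before the start of the gene in RefSeq (GRCm38.p6), 5′ to 3′ on the gene's strand. Capitals mark an E-box, CACGTG, searched on both strands.
Ass1, chr2:31470020-31470269, plus strand: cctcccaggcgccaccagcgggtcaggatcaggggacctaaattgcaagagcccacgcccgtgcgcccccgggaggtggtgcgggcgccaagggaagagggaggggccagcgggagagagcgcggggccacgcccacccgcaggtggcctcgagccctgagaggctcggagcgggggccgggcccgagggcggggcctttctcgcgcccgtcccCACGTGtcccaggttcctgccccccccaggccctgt
Oat, chr7:132576399-132576648, minus strand: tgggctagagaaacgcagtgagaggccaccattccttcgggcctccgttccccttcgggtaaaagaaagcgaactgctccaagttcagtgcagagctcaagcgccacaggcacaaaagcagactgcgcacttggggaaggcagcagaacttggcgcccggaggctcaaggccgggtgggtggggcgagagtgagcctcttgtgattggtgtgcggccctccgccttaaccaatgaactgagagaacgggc
The E-box of Ass1 lay 36 bases before the start, and 6.02% of 32851 mouse promoter windows of the same length hold one. Neither window held the amino acid response element TGATGNAA, found in 3.45% of those promoters, on either strand.

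Levels are the authors' log2 values from RMA, a summary of the probes of a probe set, and 1 unit is a doubling. The median of an array was 5.44 to 5.75 on the 48 h platform and 3.87 to 4.04 on the other, and no pair of arrays was identical. Levels of different genes, and of the 2 platforms, are not comparable. Differences are log2 fold changes ± SE from limma fits over all genes of a platform, and a gene is called at a Benjamini-Hochberg adjusted p below 0.05. Cd4 and Cd3e, which define helper T cells, were present in every group, with Cd4 means of 9.54 to 10.06 at 48 h and 7.38 to 8.42 at 72 h. The mean of 10 CD4 T cell genes was lower without OVA. At 72 h it averaged 9.37 in untreated cultures against 10.51 with OVA. In the low media at 48 h its group means were 10.15 to 10.17 without OVA and 10.5 to 10.74 with it. Its part in the members' levels was not tested. Macrophage genes gave signal as well, Lyz2 (lysozyme) reaching group means of 9.50 to 11.27 at 48 h. In such bulk samples fewer cells of a type and less RNA per cell cannot be told apart. The labels do not say whether replicates came from separate animals or cultures, so a p-value here reflects only how these samples vary, which may be technical, and the number of arrays limits the precision.

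Arg1, the cytosolic arginase, spanned 4.46 log2 units over the 48 h arrays and 6.30 over the 72 h arrays, the widest spans of the members. On the 48 h arrays it stood at 9.46, 10.29 and 9.21 in OVA cultures on pretreated macrophages, against 8.19, 7.84 and 7.41 in OVA cultures in full medium. The groups did not overlap, and every pretreated array lay above every other array of the platform. Arg1 was 3.58-fold higher with pretreatment, a log2 difference of 1.84 ± 0.24 (limma, adjusted p = 3.45e-05, n = 3 each). In the same comparison 2 of the 7 members measured were called higher and 1 lower, where 8.64% of all genes were called (2.71% higher and 5.93% lower), and 4 of the 7 did not overlap between the groups, where 25.7% of all genes did not.

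With OVA in the low media, Arg1 was below its level in full medium whichever amino acid was reduced. The low-medium and full-medium arrays carry separate runs of submitter numbers, so medium and number run cannot be told apart here. It stood at 6.24, 6.10 and 5.83 in 1% arginine, at 6.16, 6.04 and 6.46 in 1% leucine and at 6.12, 6.71 and 6.13 in 1% lysine, against 8.19, 7.84 and 7.41 with OVA in full medium. No low-medium array reached the lowest full-medium array, and the 3 low media overlapped one another. The differences from full medium were -1.76 ± 0.24 in 1% arginine (limma, adjusted p = 8.14e-05), -1.59 ± 0.24 in 1% leucine (adjusted p = 0.000273) and -1.49 ± 0.24 in 1% lysine (adjusted p = 0.000582), or 3.38-fold, 3.01-fold and 2.81-fold lower. These 3 comparisons share their full-medium arrays. Between low media the differences in Arg1 were small, at -0.16 (95% interval -0.66 to 0.34) for arginine against leucine, -0.26 (-0.76 to 0.24) for arginine against lysine and -0.10 (-0.60 to 0.40) for leucine against lysine.

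Antigen did not move Arg1 past the test within a low medium. Without OVA it stood at 6.08 and 6.58 in 1% arginine, at 6.56, 6.48 and 6.51 in 1% leucine and at 6.77, 6.47 and 6.19 in 1% lysine, overlapping the arrays with OVA in arginine and lysine but not in leucine. The effect of OVA was -0.28 ± 0.27, -0.30 ± 0.24 and -0.16 ± 0.24 in the 3 media. All 17 low-medium arrays, with or without OVA, lay between 5.83 and 6.77. The order of group means at 48 h was thus pretreated, then full medium with OVA, each clear of the group under it, and then the 6 low-medium groups, whose neighbours in the order all overlapped.

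Set against OVA in 1% arginine, the OVA cultures on pretreated macrophages had 12.1-fold more Arg1 signal (3.60 ± 0.24, limma, adjusted p = 4.64e-09). Arg1 was the 1 member of 7 called in that comparison, where 3.37% of genes were called (1.52% higher and 1.85% lower). Arg2 and Asl missed the threshold (0.55 ± 0.18 and 0.46 ± 0.16, limma, adjusted p = 0.117 and 0.159). An unadjusted p below 0.05 was found for 3 of the 7 members and for 12.2% of all genes. At 48 h the full-medium arrays and the low-medium arrays carry separate runs of submitter numbers, so the number run and the medium cannot be told apart.

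**Figure D1:**
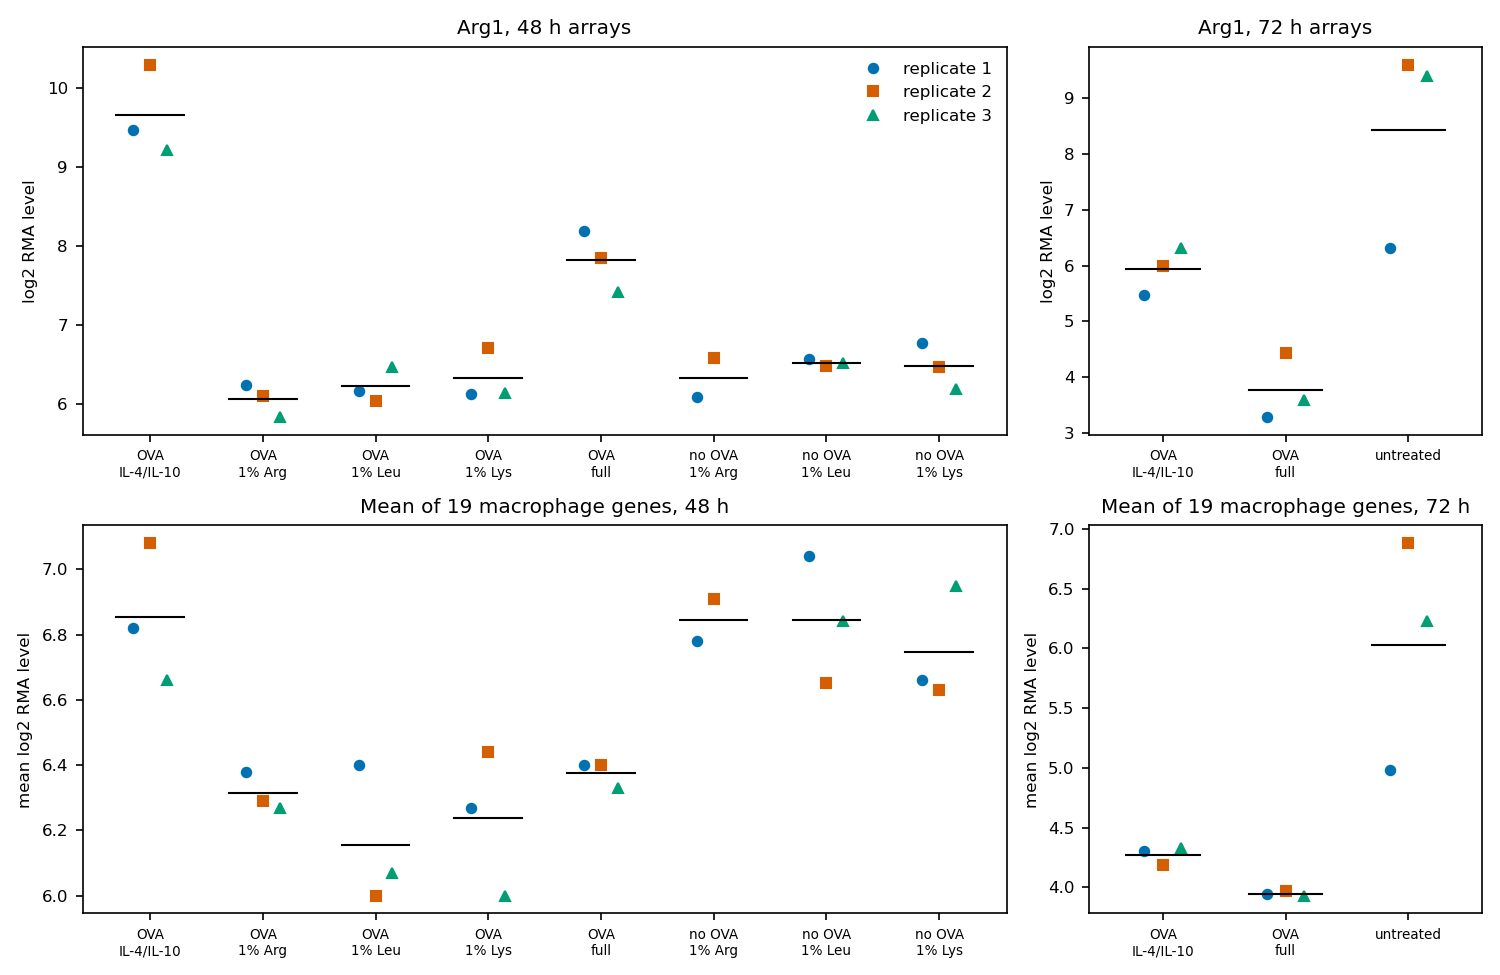
Arg1 level (top, log2 RMA) and the mean log2 RMA level of 19 macrophage genes (bottom) in every array at 48 h (left) and 72 h (right). Points are arrays, with colour and shape giving the replicate number of the titles, and bars are group means. Arg1 was highest on pretreated macrophages at 48 h and, among the 72 h groups, lowest with OVA in full medium. The low media without OVA had a macrophage mean of 6.63 to 7.04 and an Arg1 level of 6.08 to 6.77. The part of macrophages in the Arg1 signal was not tested.

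Some macrophage genes were also higher with pretreatment at 48 h. Their mean over 19 genes was 6.66 to 7.08 in OVA cultures on pretreated macrophages, against 6.33 to 6.40 with OVA in full medium, and 6 of the 19 were called higher and 0 lower (median log2 fold 0.31, against 0.008 over all genes). Of 14 markers of alternative activation, the state that IL-4 induces, 4 were called higher and 0 lower (median log2 fold 0.09, against 0.008 over all genes). Their mean was 6.35 to 6.56 on pretreated macrophages, against 5.61 to 5.74, with the largest differences in Chil3 and Retnla. Chil3, a chitinase-like protein of such macrophages, averaged 10.01 ± 0.42 against 5.08 ± 0.32 (SD, n = 3 each), a difference of 4.94 ± 0.25 (limma, adjusted p = 1.31e-11). Retnla, a secreted protein of the same state, averaged 6.75 ± 0.43 against 3.21 ± 0.16 and differed by 3.54 ± 0.26 (adjusted p = 8.69e-09). The mean of 6 dendritic cell genes was 6.31 to 6.63 on pretreated macrophages and 6.08 to 6.28 in full medium. What part these cells have in the Arg1 signal was not tested.

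The macrophage mean was 6.31 ± 0.06 with OVA in 1% arginine, 6.16 ± 0.21 in 1% leucine and 6.24 ± 0.22 in 1% lysine, against 6.38 ± 0.04 with OVA in full medium (SD, n = 3 each). Of the 9 low-medium arrays, 6 lay below every full-medium array. There 0 of 19 macrophage genes were called in 1% arginine, 1 was called lower in 1% leucine (Lyz2, -0.99 ± 0.26, adjusted p = 0.0397) and 0 were called in 1% lysine by limma, while Arg1 was called lower in each. Of 14 genes of alternative activation, 1, 2 and 4 were called lower in 1% arginine, leucine and lysine and 0, 0 and 1 higher, with array means of 5.41 to 5.69 against 5.61 to 5.74 in full medium. The part of these cells in the lower Arg1 level was not tested. Of 7 members, 2 were called lower in 1% arginine (Arg1 and Asl), 2 in 1% leucine (Arg1 and Oat) and 4 in 1% lysine (Arg1, Nos2, Asl and Oat), and none higher. Over all genes 4.67% were called in 1% arginine (1.51% higher and 3.17% lower), 2.72% in 1% leucine (1.15% and 1.56%) and 8.73% in 1% lysine (2.49% and 6.24%). The groups did not overlap for 3, 3 and 4 of the 7 members, and for 27.6%, 23.3% and 29.2% of all genes. The median log2 fold of the 7 members was -0.32, -0.25 and -0.49 in the 3 media, against 0.007, 0.002 and 0.024 over all genes.

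Other cell type markers also differed between these groups. The mean of 6 B cell genes was 5.72 to 6.81 with OVA in 1% lysine and 5.50 to 5.91 with OVA in 1% arginine, against 5.28 to 5.40 with OVA in full medium. The mean of 5 CD8 T and NK cell genes was 5.88 to 5.91 in 1% arginine and 5.79 to 6.01 in 1% leucine, against 6.41 to 6.52 in full medium. Their part in the members' levels was not tested.

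At 72 h Arg1 was again higher on pretreated macrophages, but the untreated cultures were the highest. It stood at 5.48, 5.99 and 6.32 in OVA cultures on pretreated macrophages, at 3.29, 4.44 and 3.60 in OVA cultures on untreated macrophages and at 6.32, 9.59 and 9.38 in untreated cultures. The OVA arrays lay below all others, and replicate 3 of the pretreated cultures equalled replicate 1 of the untreated ones to 2 decimals. With OVA, Arg1 fell to a mean of 3.78 ± 0.60, against 8.43 ± 1.83 in untreated cultures (SD, n = 3 each), a log2 difference of -4.65 ± 0.71 or 25.2-fold (limma, adjusted p = 0.00031). In this comparison 2 of the 8 members were called, both lower, where 38.2% of all genes were called (20.7% higher and 17.4% lower). No overlap was seen for 3 members and for 46.7% of all genes.

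The pretreatment difference of Arg1 at 72 h was 2.15 ± 0.71, or 4.45-fold, with groups that did not overlap, and it missed the threshold (limma, adjusted p = 0.0851). No label states that the replicate numbers pair the arrays, and deviations of same-numbered arrays correlated only weakly here (r = 0.16 to 0.26). With that number as a block, the same difference of 2.15 ± 0.50 passed (limma, adjusted p = 0.0276). Fitted on the 2 compared groups alone, without the more scattered untreated arrays, it passed as well (adjusted p = 0.0169). Chil3 was 3.73 ± 0.33 on pretreated macrophages against 2.98 ± 0.12 at this time, a difference of 0.75 ± 0.15 (limma, adjusted p = 0.0124). Both means lay below the platform median of 3.93. Retnla and Mrc1, other markers of alternative activation, were not called (0.35 ± 0.15 and 0.26 ± 0.41, limma, adjusted p = 0.172 and 0.777).

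Macrophage and tissue markers differed widely between the 72 h groups. The macrophage mean was 4.19 to 4.33 with pretreatment, 3.93 to 3.97 with OVA, and 4.98, 6.88 and 6.23 in replicates 1, 2 and 3 of the untreated cultures. The untreated replicate with the lowest macrophage mean was also the one with the lowest Arg1. Between OVA and untreated cultures 11 of 19 macrophage genes were called lower and 0 higher (median log2 fold -1.57, against 0.02 over all genes). Of 17 mesothelial and stromal genes all were called lower with OVA, with array means of 4.06 to 4.40 against 9.42 to 9.64 in untreated cultures, and Upk3b, a mesothelial membrane protein, averaged 3.71 against 11.11. The pretreated arrays held 4.40 to 5.88 for that list. The share of these cells in the Arg1 difference was not tested.

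Genes with a pattern like that of Arg1 were sought by Pearson correlation, as a description only, since arrays of a group share their treatment. Over the 23 arrays at 48 h the closest of 8547 genes were Rtp4, an interferon-induced chaperone (r = 0.929), Kcnma1, a potassium channel subunit (0.854), and Eomes, a T-box factor of cytotoxic cells (0.854). Over the 9 arrays at 72 h, out of 7778 genes, they were Golga1, a Golgi protein (0.986), Cyp4v3, a cytochrome P450 (0.985), and the macrophage gene Lyz2 (0.982).

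Arg2, the mitochondrial arginase, moved less. On the 48 h arrays it stood at 7.18, 6.77 and 6.79 in OVA cultures on pretreated macrophages, against 6.41, 6.14 and 6.15 with OVA in full medium, with no overlap. It rose by 0.68 ± 0.18, or 1.60-fold (limma, adjusted p = 0.0176), but the call was lost without replicate 2 or replicate 3 of the full-medium cultures or replicate 1 of the pretreated ones (0.55 to 0.63, adjusted p = 0.0753 to 0.118). In 1% lysine Arg2 fell with antigen, to 6.34, 5.77 and 5.99 with OVA, against 6.66, 6.51 and 6.46 without (-0.51 ± 0.18, adjusted p = 0.0348). That call was lost without replicate 2 or 3 with OVA or replicate 1 or 2 without OVA (-0.52 to -0.37, adjusted p = 0.0656 to 0.155), in the fit of those groups alone (adjusted p = 0.07), after quantile normalization (-0.47, adjusted p = 0.0703) and after median centring (-0.32, adjusted p = 0.212).

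At 72 h Arg2 was dim, at 2.95 to 3.99 over the 9 arrays. It stood at 3.18, 3.02 and 2.99 with OVA, against 3.31, 3.99 and 3.26 in untreated cultures. The groups did not overlap, and the difference of -0.46 ± 0.17 missed the threshold (limma, adjusted p = 0.0598). Without untreated replicate 1 it was -0.56 (adjusted p = 0.0436), and without untreated replicate 3 it was -0.59 (adjusted p = 0.0308).

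Nos2, the inducible synthase that makes nitric oxide in activated macrophages, was called in 1 of 13 comparisons. With OVA in 1% lysine it stood at 5.69, 5.70 and 5.43, against 5.94, 6.48 and 6.78 with OVA in full medium. The groups did not overlap, and Nos2 was lower in 1% lysine by 0.79 ± 0.20 on the log2 scale (limma, adjusted p = 0.0165). The values in 1% lysine lay about the platform median of 5.58, and medium and number run cannot be told apart. Without replicate 2 of full medium the adjusted p was 0.0681, and without replicate 3 it was 0.117, with differences of -0.75 and -0.60, and in the fit of those groups alone it was 0.0664. In the other low media it was 5.93 to 6.23 (arginine) and 5.52 to 6.25 (leucine) with OVA, overlapping full medium. On pretreated macrophages it stood at 6.24, 6.21 and 6.78, with a difference from full medium of 0.01 (95% interval -0.41 to 0.43).

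At 72 h the values of the probe sets of Nos2, Il4i1 and Ido1 alone were close to one another in all groups, and none of the 3 was called. Nos2 lay between 3.33 and 3.71, Il4i1 between 3.39 and 3.75 and Ido1 between 2.89 and 3.12, each below the median of its platform. A second probe set that names Il4i1 together with Nup62 and Il4i1b was not tested and stood at 9.12 to 9.59 on pretreated macrophages, 9.34 to 9.41 with OVA and 8.01 to 8.06 in untreated cultures, and which of the 3 genes it read cannot be told apart. The 95% interval of the pretreatment difference was -0.19 to 0.29 for Nos2, -0.38 to 0.10 for Il4i1 and -0.16 to 0.17 for Ido1. For OVA against untreated cultures it was -0.19 to 0.29, -0.12 to 0.36 and -0.25 to 0.09.

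**Figure D2:**
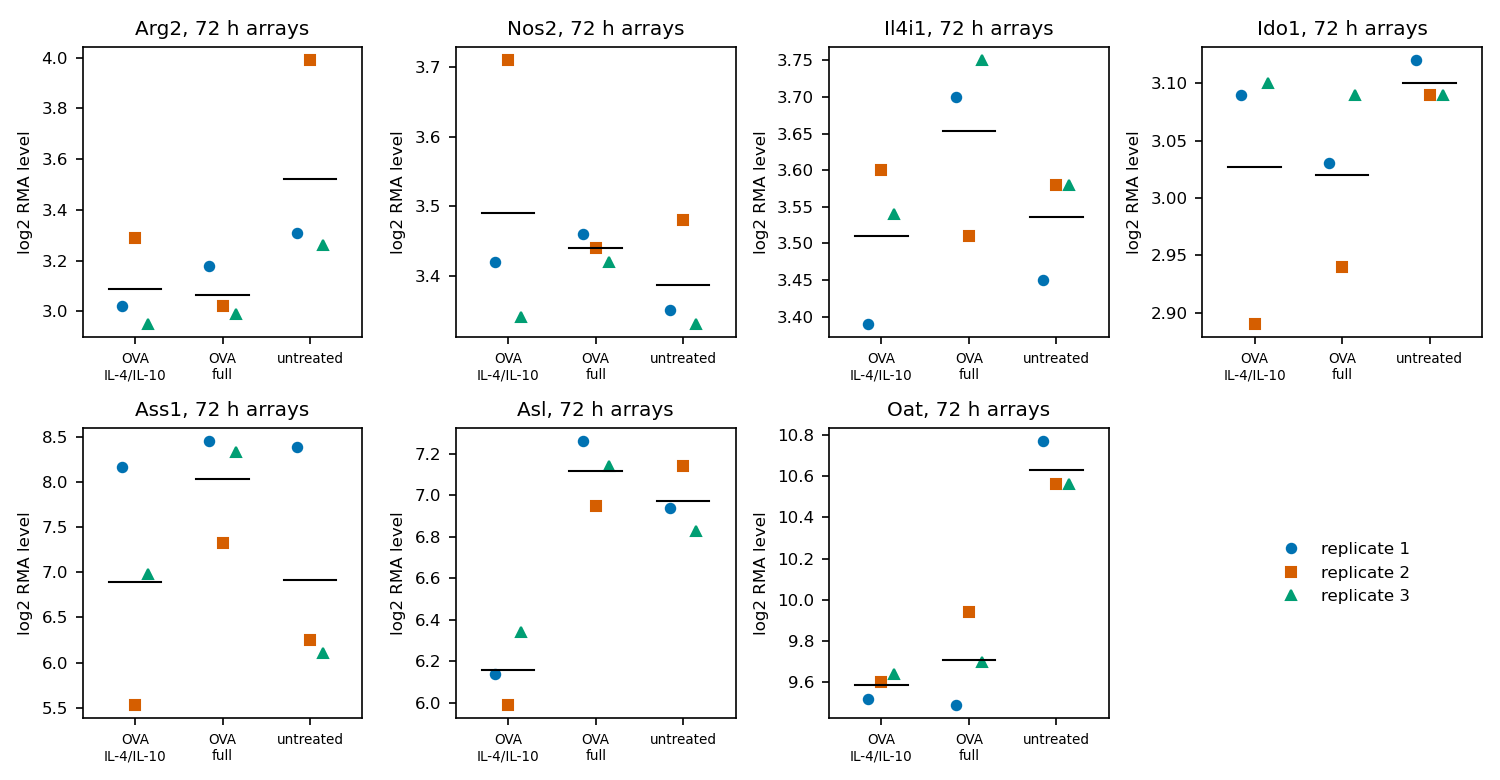
Level (log2 RMA) of the other 7 members in the 9 arrays at 72 h, each panel with its own scale. Points are arrays, with colour and shape giving the replicate number, and bars are group means. Asl was lower on pretreated macrophages (5.99 to 6.34), Oat was highest in untreated cultures (10.56 to 10.77), and Ass1 was 8.17 to 8.45 in replicate 1 of all 3 groups.

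Ido1, which begins the kynurenine pathway, averaged 5.59 over the 48 h arrays, beside a median of 5.58 over all probe sets of that platform. It was called once at 48 h. With OVA in 1% leucine it stood at 5.49, 5.19 and 5.23, against 6.26, 5.92 and 5.31 without OVA. The groups overlapped, since replicate 3 without OVA lay among the OVA arrays, and the other two were the highest of the platform. The difference was -0.53 ± 0.18 (limma, adjusted p = 0.0208). It was -0.31 without replicate 1 of the cultures lacking OVA (adjusted p = 0.181). It also missed the threshold without replicate 2 of those cultures (adjusted p = 0.0626), without replicate 2 or 3 with OVA (0.0741 and 0.067), in the fit of those groups alone (0.0884), and after quantile normalization (-0.33, adjusted p = 0.18) or median centring (-0.29, adjusted p = 0.203). Over all 23 arrays Ido1 spanned 5.19 to 6.26.

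Ass1, which joins citrulline to aspartate, was called in none of 13 comparisons by limma, although its unadjusted p was below 0.05 in 1 of them, pretreated macrophages against full medium at 48 h. In that comparison it stood at 5.13, 5.73 and 5.83 with pretreatment, against 5.82, 6.04 and 6.29 (-0.49 ± 0.20, adjusted p = 0.147), and the groups overlapped slightly. Over all 48 h arrays it ranged from 5.13 to 6.56.

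On the 72 h arrays Ass1 spread by 2.92 log2 units. It stood at 8.17, 5.53 and 6.98 in OVA cultures on pretreated macrophages, at 8.45, 7.32 and 8.33 with OVA alone and at 8.39, 6.25 and 6.11 in untreated cultures. Replicate 1 was the highest array in each of the 3 groups. The effect of OVA was 1.12 ± 0.70 (limma, adjusted p = 0.247) and that of pretreatment -1.14 ± 0.70 (adjusted p = 0.373), neither past the spread between replicates. Without untreated replicate 1 the effect of OVA was 1.85 ± 0.63 (adjusted p = 0.0444). A second, dim probe set for Ass1 stayed between 3.32 and 3.93 and did not show the high replicate 1 of the untreated cultures, which held its lowest value. The genes most like Ass1 over these 9 arrays were Lgals9, a galectin (r = 0.969), Snd1, a nuclease domain protein (0.938), and Brf2, an RNA polymerase III factor (0.932).

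Asl, which releases arginine in the last step of its recycling from citrulline, fell in 3 comparisons and rose in 1. At 72 h it stood at 6.14, 5.99 and 6.34 on pretreated macrophages, against 7.26, 6.95 and 7.14 with OVA alone. The groups were far apart, and the untreated cultures, at 6.94, 7.14 and 6.83, lay with the OVA cultures. Asl was 1.95-fold lower with pretreatment (-0.96 ± 0.18, limma, adjusted p = 0.0106), the 1 member of 8 called where 9.69% of genes were called (3.78% higher and 5.91% lower). Without replicate 3 of the OVA cultures the difference was -0.95 and the adjusted p 0.0516.

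At 48 h Asl was lower than in full medium in OVA cultures short of arginine or lysine. It stood at 6.05, 6.03 and 5.96 in 1% arginine, at 6.65, 6.54 and 6.63 in 1% leucine and at 6.36, 5.86 and 6.49 in 1% lysine, against 7.01, 6.76 and 6.80 in full medium. Every low-medium array lay below the full-medium arrays, and medium and number run cannot be told apart in these comparisons. The differences were -0.84 ± 0.16 in 1% arginine (limma, adjusted p = 0.00259), -0.62 ± 0.16 in 1% lysine (adjusted p = 0.0191) and -0.25 ± 0.16 in 1% leucine (adjusted p = 0.601). The lysine call was lost without replicate 1 or 3 of full medium (adjusted p = 0.0781 and 0.0521) or without replicate 2 of 1% lysine (-0.44, adjusted p = 0.153), after quantile normalization (-0.54, adjusted p = 0.0674) and in the fit of those groups alone (adjusted p = 0.0859). On pretreated macrophages Asl stood at 6.32, 6.69 and 6.42, below every full-medium array, with a difference of -0.38 ± 0.16 (adjusted p = 0.179).

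Between the low media with OVA, Asl in 1% arginine was lower than in 1% leucine in all arrays (-0.59 ± 0.16, or 1.51-fold), but missed the threshold over all genes (limma, adjusted p = 0.112). The fit of those 2 groups alone passed it (adjusted p = 0.0184). None of 7 members was called between arginine and leucine, arginine and lysine, or leucine and lysine, where 0.712% (0.234% higher and 0.478% lower), 3.22% (2.65% and 0.577%) and 1.88% (1.59% and 0.289%) of genes were called by limma. At an unadjusted p below 0.05 each of these comparisons held 1 member, which was Asl, Nos2 and Asl, and 9.59%, 14.4% and 16.3% of all genes.

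Antigen raised Asl in 1% leucine, where it stood at 6.65, 6.54 and 6.63 with OVA, against 6.26, 5.88 and 5.93 without. The groups did not overlap, and the difference was 0.59 ± 0.16 (limma, adjusted p = 0.00642). In 1% arginine the difference was -0.16 ± 0.18 and in 1% lysine 0.17 ± 0.16, with overlapping groups. A test of whether the antigen effect differed between the 3 media gave Asl the highest F of the 7 members (limma moderated F = 4.72), which missed the threshold (limma, adjusted p = 0.421). None of the 7 members was called in that test, where 0.149% of genes were, and 1 had an unadjusted p below 0.05, as had 8.93% of genes. The genes most like Asl over the 48 h arrays were Tmem168, a membrane protein (r = 0.85), Irak1bp1, which binds a kinase of interleukin 1 signalling (0.836), and Nt5c, a nucleotidase (0.832).

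Oat, the mitochondrial ornithine aminotransferase, was called in 6 comparisons, lower in 4 and higher in 2. At 72 h it stood at 9.49, 9.94 and 9.70 with OVA, against 10.77, 10.56 and 10.56 in untreated cultures. The groups did not overlap, and Oat fell by 0.92 ± 0.13 on the log2 scale, 1.89-fold (limma, adjusted p = 0.000171). In the same comparison 17 of 17 mesothelial and stromal genes (median log2 fold -5.58) and 11 of 19 macrophage genes were called lower, and their part in the Oat difference was not tested. On pretreated macrophages with OVA it stood at 9.52, 9.60 and 9.64, among the OVA cultures (-0.12 ± 0.13, adjusted p = 0.647). The closest genes over these 9 arrays were Arxes2, an adipocyte protein (r = 0.988), Tpst1, a sulfotransferase (0.983), and Zfp618, a zinc finger protein (0.982).

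In 1% arginine and 1% lysine at 48 h Oat was higher with OVA than without. It stood at 8.55, 8.53 and 8.93 in 1% arginine with OVA, against 8.26 and 8.12 without. In 1% lysine it stood at 8.22, 8.67 and 8.82 with OVA, against 7.99, 7.77 and 7.76 without. Both pairs of groups were apart, and Oat rose by 0.73 ± 0.15 in 1% lysine (limma, adjusted p = 0.000416) and by 0.48 ± 0.16 in 1% arginine (adjusted p = 0.0302).

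The arginine call was lost after quantile normalization (0.16, adjusted p = 0.552), without replicate 3 with OVA (0.35, adjusted p = 0.145), and without replicate 1 or 2 of the cultures lacking OVA (0.55 and 0.41, adjusted p = 0.0783 and 0.172). In 1% leucine the groups overlapped, with 8.46, 8.33 and 8.66 with OVA against 8.30, 8.08 and 8.33 without (0.25 ± 0.15, adjusted p = 0.177). Quantile normalization gave -0.08 there and centring of the arrays gave 0.48 (adjusted p = 0.019), so the direction in 1% leucine depends on the scaling. No cultures without antigen were made in full medium at 48 h, and the opposite direction at 72 h was measured on another platform.

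With OVA at 48 h, Oat was highest in full medium, at 9.04, 9.06 and 9.10. All arrays on pretreated macrophages (8.45, 8.45 and 8.61) and in the low media (8.22 to 8.93) lay below these. It was lower by 0.56 ± 0.15 with pretreatment (limma, adjusted p = 0.0154), by 0.58 ± 0.15 in 1% leucine (adjusted p = 0.0281) and by 0.49 ± 0.15 in 1% lysine (adjusted p = 0.0355), and the difference in 1% arginine was -0.40 ± 0.15 (adjusted p = 0.136). For the low media, medium and number run cannot be told apart.

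These Oat calls were close to the threshold. The pretreatment call was lost without replicate 2 or 3 of full medium or replicate 1 or 2 of the pretreated cultures (adjusted p = 0.0528 to 0.0607). The leucine call was lost without any 1 of the full-medium arrays or replicate 1 or 2 of 1% leucine (-0.60 to -0.51, adjusted p = 0.0786 to 0.167) and after median centring (adjusted p = 0.0551). The lysine call was lost without any 1 of the full-medium arrays or replicate 1 or 2 of 1% lysine (-0.54 to -0.32, adjusted p = 0.062 to 0.215), after quantile normalization (-0.33, adjusted p = 0.193) and in the fit of those groups alone (adjusted p = 0.114). In 1% arginine that fit passed the threshold (-0.40, adjusted p = 0.0386). The genes most like Oat over the 23 arrays were Cse1l, a nuclear export receptor of importin alpha (r = 0.922), Scarb1, a lipoprotein receptor (0.92), and Gemin5, a snRNP assembly factor (0.918).

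**Figure D3:**
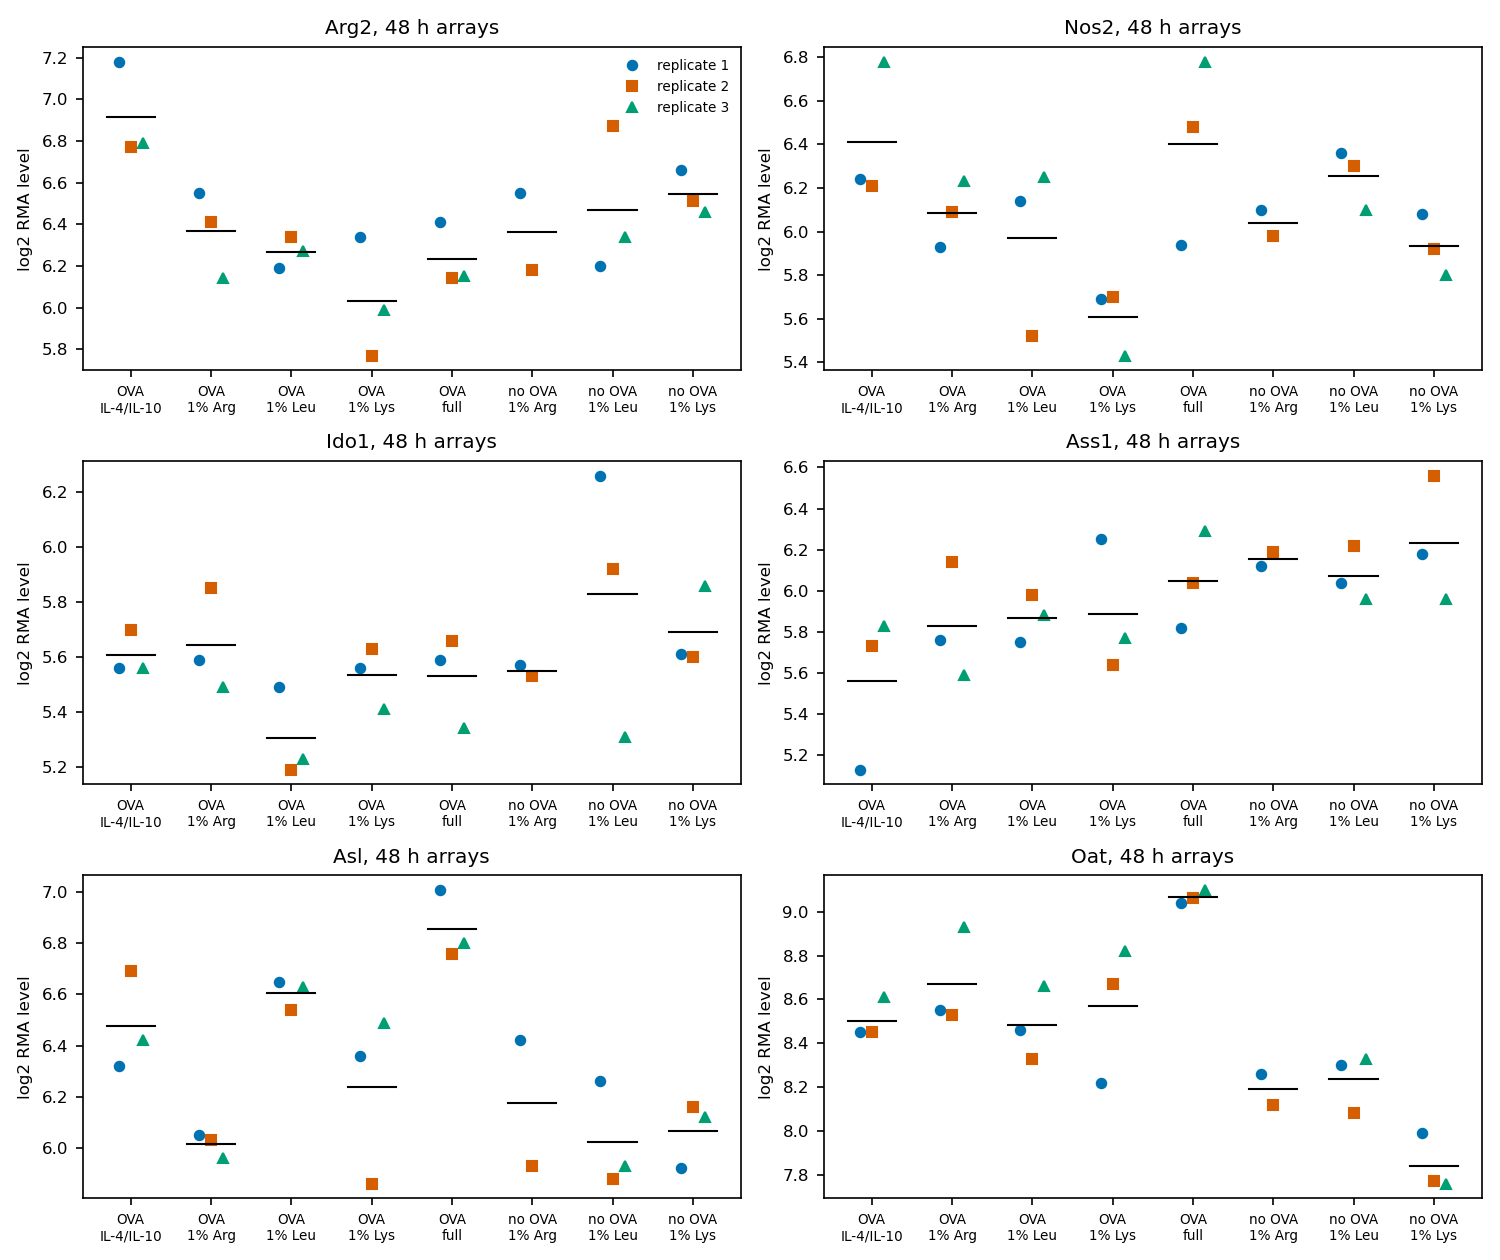
Level (log2 RMA) of 6 members in the 23 arrays at 48 h, each panel with its own scale; Il4i1 had no probe set of its own. Points are arrays, with colour and shape giving the replicate number, and bars are group means. Arg2 was highest on pretreated macrophages (6.77 to 7.18), Asl and Oat were highest with OVA in full medium, and Oat was lowest without OVA in 1% lysine (7.76 to 7.99).

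Antigen in the low media moved 5 member differences past the test. In 1% arginine 1 of 7 members was called (Oat, higher), where 29.4% of genes were called (17.2% higher and 12.2% lower). In 1% leucine 1 was called higher (Asl) and 1 lower (Ido1), where 41.3% were (21.8% and 19.5%), and in 1% lysine 1 higher (Oat) and 1 lower (Arg2), where 31.0% were (18.4% and 12.6%). The macrophage genes moved with antigen there, with 8, 11 and 9 of 19 called lower and 1, 1 and 0 higher in arginine, leucine and lysine, and 6, 10 and 3 of 17 mesothelial and stromal genes called lower. Their part in the members' levels was not tested. The median log2 fold over all genes was -0.12, -0.13 and -0.09 in these comparisons, and 0.10, 0.11 and 0.10 after centring each array on its median, so a rise or fall of that size depends on the scaling.

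**Figure D4:**
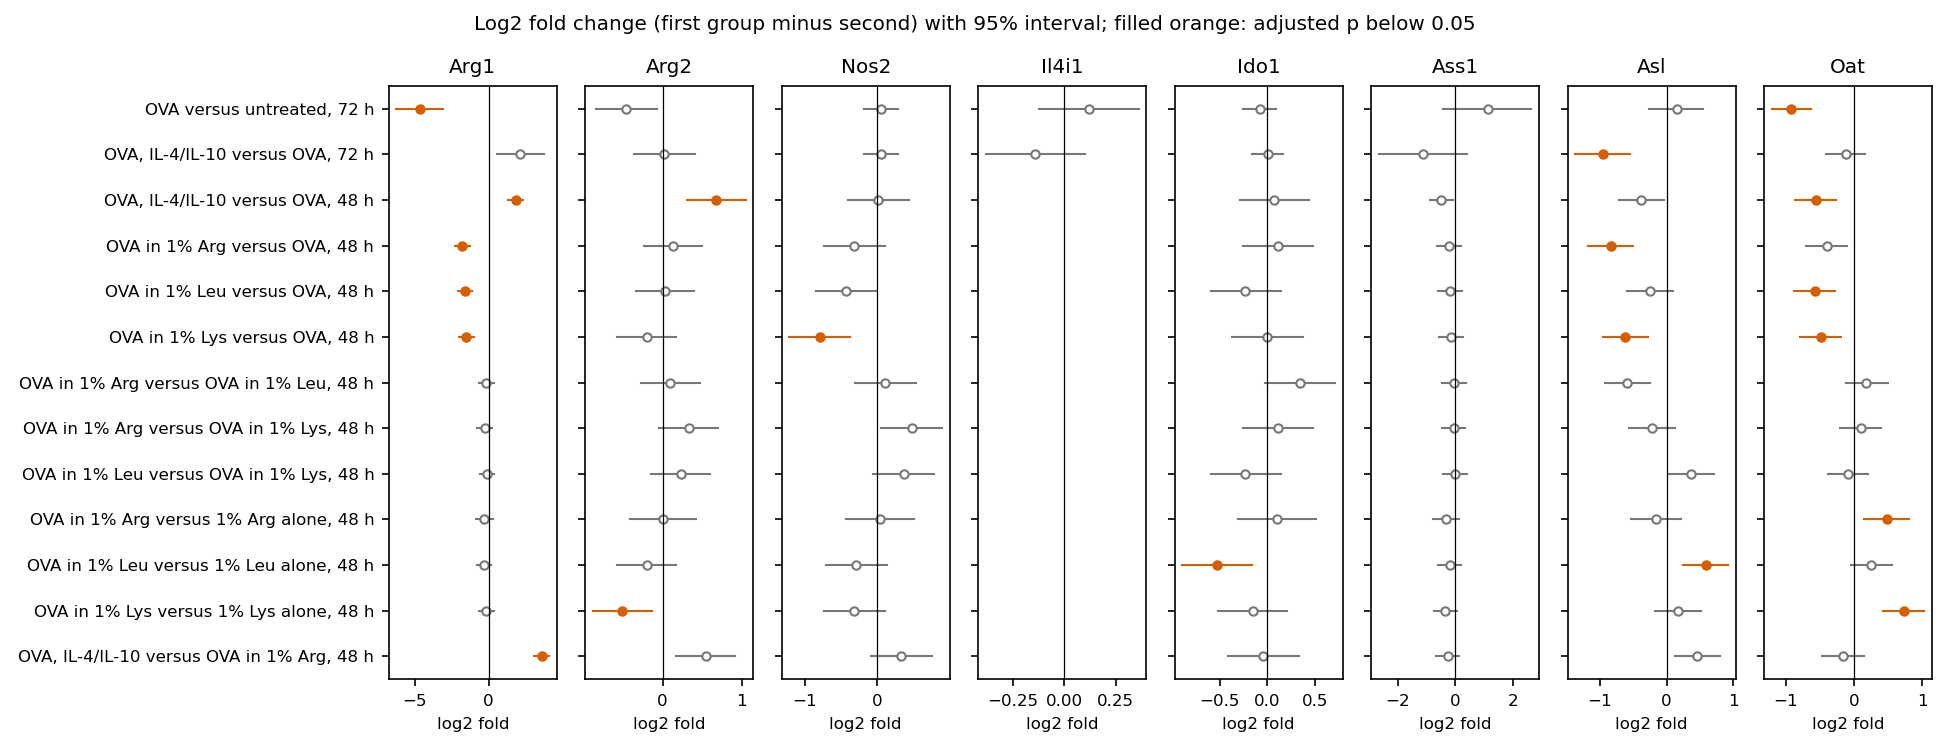
Log2 fold change of each member (first group minus second, with its 95% interval from limma) in 13 comparisons, each panel with its own scale. Filled orange points have an adjusted p below 0.05 and open grey points do not. Over the 13 comparisons 6 differences were called higher and 14 lower of 93 tested, and Arg1 and Oat held 6 each. The share of all genes called ran from 0.712% to 41.3% across these comparisons. Many of them share arrays, so the calls are not separate results.

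The enzymes next to the members in the pathways were followed in 5 lists. With OVA at 72 h, 8 of 13 ornithine, polyamine and proline enzymes were called higher and 1 lower (median 0.85, against 0.02 over all genes), while Oat, which uses the same ornithine, fell. In that comparison 20.7% of all genes were called higher and 17.4% lower. Mesothelial, stromal and macrophage genes fell there as well, and their part was not tested. Sms, which makes spermine, rose by 2.71 ± 0.15 (limma, adjusted p = 3.47e-07), Aldh18a1, which makes the proline precursor from glutamate, rose by 1.66 ± 0.54 (adjusted p = 0.0302), and Sat1, which acetylates polyamines for export, fell by 0.60 ± 0.11 (adjusted p = 0.00132). In the low media at 48 h OVA raised 7, 8 and 6 of 13 (arginine, leucine and lysine) and lowered 1, 0 and 0. Of all genes 17.2%, 21.8% and 18.4% were called higher there, and 12.2%, 19.5% and 12.6% lower. Aldh18a1 was higher by 2.16, 2.13 and 2.24 and Srm, the spermidine synthase, by 1.58, 2.06 and 2.02.

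On pretreated macrophages at 48 h, 3 of the 13 were called lower and 0 higher (median -0.15, against 0.008 over all genes), where 5.93% of all genes were called lower. Srm fell by 0.86 ± 0.15 (limma, adjusted p = 0.000857) and Pycrl, a pyrroline carboxylate reductase, by 0.70 ± 0.16 (adjusted p = 0.00715). In 1% arginine, against full medium with OVA, Srm was lower by 0.67 ± 0.15 (adjusted p = 0.0111) and Dhps, which uses spermidine to modify eIF5A, by 0.59 ± 0.16 (adjusted p = 0.0355), the 2 of 13 called. Medium and number run cannot be told apart in the comparisons of low with full medium. Over all genes 4.67% were called in 1% arginine. None of the 13 was called in 1% leucine, and 2 were called lower in 1% lysine, where 6.24% of all genes were called lower. At 72 h none of the 13 was called with pretreatment.

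Among the 9 genes for nitric oxide synthases and their cofactor tetrahydrobiopterin, Gch1, which starts cofactor synthesis, rose with OVA in all 4 antigen comparisons, by 2.53 ± 0.36 at 72 h (limma, adjusted p = 0.000186) and by 1.56, 2.23 and 1.99 in 1% arginine, leucine and lysine. Nos3, the endothelial synthase, was 4.78 with OVA against 3.27 in untreated cultures at 72 h (1.51 ± 0.23, adjusted p = 0.000305). On pretreated macrophages Nos3 fell to 3.63, against 4.78 with OVA alone (-1.15 ± 0.23, limma, adjusted p = 0.0121), together with Qdpr, which recycles the cofactor (-0.76 ± 0.16, adjusted p = 0.0138). These were the 2 called of 9, where 9.69% of all genes were called. Macrophage genes differ between these groups as given above.

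In the list of urea cycle, creatine and other arginine enzymes, the arginine methyltransferases Prmt1 and Prmt5 rose with OVA, by 1.28 ± 0.27 and 0.77 ± 0.20 at 72 h (limma, adjusted p = 0.00295 and 0.00831) and by 1.74 to 2.29 in the low media. At 72 h Ddah1 and Ddah2, which break down methylated arginine, fell by 2.07 ± 0.30 and 2.24 ± 0.20 (adjusted p = 0.000219 and 6.97e-06), and mesothelial and stromal genes fell in the same comparison. In that list 2 of 11 were called higher and 3 lower at 72 h, where 20.7% of all genes were called higher and 17.4% lower. Gatm, which moves the amidino group of arginine onto glycine for creatine, was lower than in full medium in each low medium with OVA, averaging 5.15 in 1% arginine, 5.43 in 1% leucine and 5.37 in 1% lysine, against 6.25 in full medium (limma, adjusted p = 0.00118, 0.0189 and 0.0063). Medium and number run cannot be told apart there.

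Of the tryptophan and kynurenine enzymes, Kyat3, a kynurenine aminotransferase, was the 1 gene of 13 called lower in each of 4 comparisons with OVA in full medium at 48 h. It averaged 5.49 on pretreated macrophages, 5.58 in 1% arginine, 5.94 in 1% leucine and 6.12 in 1% lysine, against 7.09 in full medium. The differences were -1.60 ± 0.19, -1.50 ± 0.19, -1.15 ± 0.19 and -0.97 ± 0.19 (limma, adjusted p = 1.38e-05, 3.3e-05, 0.00087 and 0.0031), and these comparisons share their full-medium arrays. For the low media, number run and medium cannot be told apart. Haao, a later enzyme of the pathway, averaged 3.62 on pretreated macrophages against 5.98 with OVA alone at 72 h (-2.36 ± 0.56, adjusted p = 0.0238). Ido1 itself was called in none of these comparisons.

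Among other enzymes of amino acid breakdown, Cth, which cleaves cystathionine to cysteine, had the largest called rise of its list with pretreatment and in each low medium. It averaged 9.07 on pretreated macrophages, 9.02 in 1% arginine, 8.51 in 1% leucine and 8.48 in 1% lysine, against 6.63 with OVA in full medium at 48 h. The differences were 2.44 ± 0.28, 2.39 ± 0.28, 1.88 ± 0.28 and 1.85 ± 0.28 (limma, adjusted p = 7.86e-06, 1.26e-05, 0.000267 and 0.000354). At 72 h it was 10.09 on pretreated macrophages, against 7.12 with OVA alone (2.97 ± 0.27, adjusted p = 0.000175). Arg1 was lower than in full medium in the low media of this set and higher on pretreated macrophages. For both genes, low medium and number run cannot be told apart at 48 h.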

How the data were processed

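Per the submitters' processing notes, the authors summarised the arrays with RMA in Affymetrix Expression Console 1.1 and deposited log2 values. Which arrays were normalized together is not given in the sources used here. The deposited values were used unchanged. Symbols came from the platform annotation, and a gene was represented by its own probe set with the highest mean, with dim genes kept. limma 3.58.1 (R 4.3.3) fitted group means over all groups of a platform, with a mean-variance trend, two-sided tests and Benjamini-Hochberg adjustment at 0.05 over 22180 genes at 48 h or 17097 genes at 72 h. A moderated F tested whether the antigen effect differed between low media. The platforms were never fitted together. The fit was tested on simulated data.

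The genes named are the 8 members, the 3 genes most correlated with a member (SD at least 0.3), the called genes with the largest changes in 5 lists of related enzymes, and defining markers. Members and lists were chosen with earlier results of these data known. Deviations from group means over 5000 genes correlated within replicate numbers for the pretreatment comparison at 72 h (0.16 to 0.26) and for 1% arginine against 1% leucine (0.29 to 0.39). The labels state no pairing and arrays of different numbers were not compared in this way, so whether the numbers pair the arrays is not known. Alternatives were quantile normalization, median centring, dim genes left out, the mean of a gene's probe sets, the compared groups alone, the replicate number or submitter number run as a block, and each array left out. Python 3.11.15, pandas 2.3.3 and matplotlib 3.10.9 handled tables and figures.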

Additional observations from a re-analysis of the deposited data

Results flagged for a closer look

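Oat fell with antigen at 72 h and rose with antigen in 1% arginine and 1% lysine at 48 h. At 72 h in full medium it fell with OVA, with a log2 difference of -0.92 and every OVA array below every untreated one. Mesothelial and stromal genes (17 of 17 called lower, median log2 fold -5.58) and macrophage genes (11 of 19 called lower) moved in that comparison too, and their part was not tested. At 48 h Oat rose with OVA by 0.48 in 1% arginine and by 0.73 in 1% lysine, with every OVA array above every array without OVA in the same medium. The rise in 1% arginine was 0.16 after quantile normalization (limma, adjusted p = 0.552). In 1% leucine the groups overlapped (0.25, adjusted p = 0.177), and quantile normalization gave -0.08. The difference between these effects was not tested, since platform, time and medium all differ between the sets and cannot be told apart.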

How the results depend on the processing

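Of 1318 recomputed single-member results, 1210 kept their side of the threshold and, where they had one, their direction. A call was lost in 47 and gained in 10, and 0 reversed a called direction. The others were uncalled values that changed sign. The total includes the F values, which have no direction. Leaving out dim genes cannot change a difference, nor at 48 h can the mean of probe sets, so part of this agreement was fixed in advance. The calls of Arg1 held in all alternatives, as did those of Asl in 1% arginine against full medium and with antigen in 1% leucine. The calls of Oat with antigen in 1% lysine and between OVA and untreated cultures at 72 h held as well. The number of members called between OVA and untreated cultures at 72 h was 4 with the replicate block, against 2 without, adding Arg2 (-0.46, limma, adjusted p = 0.031) and Ass1 (1.12, adjusted p = 0.0415). Deviations of same-numbered arrays did not correlate in all pairs there (r = -0.22 to 0.15), and the labels state no pairing. For pretreatment at 72 h it was 2 with the replicate block or the compared groups alone, against 1. For 1% leucine against full medium it was 1 after centring, against 2. For 1% lysine against full medium it was 2 after quantile normalization and 1 in the compared groups alone, against 4. For 1% arginine against 1% leucine it was 1 in the compared groups alone, against 0. The number called with antigen fell to 0 in 1% arginine after quantile normalization, against 1. It was 1, against 2, in 1% leucine after quantile normalization or in the compared groups alone. It was also 1, against 2, in 1% lysine after quantile normalization, after centring or in the compared groups alone.

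With each array left out in turn, the number called ranged from 2 to 4 for OVA against untreated, 0 to 1 and 1 to 3 for pretreatment at 72 h and 48 h, 1 to 2 in 1% leucine and 1 to 4 in 1% lysine against full medium, and 0 to 1, 1 to 2 and 1 to 2 for antigen in 1% arginine, leucine and lysine.

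Counts over all genes moved by over 1.5 times in the compared groups alone: 1009 against 1656 for pretreatment at 72 h, 2472 against 1036 in 1% arginine, 1654 against 603 in 1% leucine and 968 against 1936 in 1% lysine against full medium. Between low media they were 879 against 158 (arginine and leucine), 139 against 715 (arginine and lysine) and 50 against 416 (leucine and lysine, with 233 after quantile normalization and 638 with the replicate block), and 456 against 748 for pretreatment against 1% arginine. Leaving out 1 array gave 495 to 2225 genes for pretreatment at 72 h and 1148 to 2111, against 1916, at 48 h. Against full medium it gave 577 to 710 in 1% arginine, 339 to 401 in 1% leucine and 903 to 3183 in 1% lysine. Between low media it gave 48 to 78 (arginine and leucine), 329 to 1021 (arginine and lysine) and 84 to 1414 (leucine and lysine). It gave 383 to 796 for pretreatment against 1% arginine, 3857 to 5543, against 6517, for antigen in 1% arginine and 8 to 218 for differing antigen effects, so the shares of genes called are imprecise. The test of differing antigen effects called 64 genes after quantile normalization, 50 without dim genes and 53 with the number run as a block, against 33. Centring moved the share of higher calls with antigen to 86.6% in 1% arginine, 82.2% in 1% leucine and 84.3% in 1% lysine, against 58.5%, 52.7% and 59.4%, to 15.4% against 28.6% in 1% lysine against full medium, and to 66.8% against 54.3% at 72 h. Quantile normalization gave 44.5% against 32.9% for arginine and leucine, 45.3% against 32.2% for 1% arginine and full medium, and 63.2% against 52.7% for antigen in 1% leucine. The causes were not tested. The probe sets of Il4i1 alone, Ido1, Arg2 and Nos2 were dim at 72 h, which limits what could be seen there. Ido1 at 48 h, and Nos2 with OVA in 1% lysine, lay at about the platform median, with the same limit.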
